A study of Mus musculus with 89 samples.

Results

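The members described here were 58 genes of mouse jejunum named for enzyme families of xenobiotic metabolism, 56 annotated as protein-coding and 2 as pseudogenes (Cyp2d41-ps and Cyp4b1-ps2): 17 glutathione S-transferases (Gst), 31 cytochromes P450 (Cyp; 18 of family 2, 5 of family 3 and 8 of family 4), 7 UDP-glucuronosyltransferases (Ugt) and 3 sulfotransferases (Sult). They were every gene of these name patterns that had a row in the UMI table of epithelial clumps and in that of single cells, and that held at least 50 UMIs (unique molecular identifiers, each counting 1 captured mRNA molecule) over all wells of the clump table. They made up 58 of the 21817 genes found in both tables. Because the members were chosen by a measured total, their abundance is a description only. Of 131 clump table genes with such names, 109 had a row in the single-cell table and 73 lay below the limit or lacked that row. Just inside the limit were Cyp4b1-ps2 with 51 UMIs and Cyp3a41b with 50, and just outside were Cyp4f18 with 48 and Cyp2c44 with 46.

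Cells handle foreign and waste compounds in steps. Cytochromes P450 oxidise a compound, using electrons from reductases and cytochrome b5, and the transferases then attach glutathione, glucuronic acid or a sulfonate group, after which efflux pumps export the conjugate. In the small intestine these enzymes sit mainly in enterocytes, the absorptive cells that are born in the crypt, migrate up the villus and are shed at its tip, and they meet drugs and food compounds before the liver does.

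All mice were C57BL/6 males of 3 months on regular chow, except that 3 single-cell plates were labelled 4 months, and no mouse was treated or genetically altered. Those 3 plates carry the number of single-cell mouse 2, whose other plates were labelled 3 months. All plates of that number were summed as the same mouse, though the labels do not settle whether they came from the same animal. Jejunum epithelium was released with EDTA. Incompletely dissociated clumps of attached cells were sorted by DNA content into 27 plates of 4n clumps (pairs of cells, mice 1 to 5) and 14 plates of larger clumps (mice 1, 4 and 5), and single cells into 44 plates (4 mice, which the labels do not tie to the clump mice). Another 4 plates, of clumps sorted above 2n from a sixth mouse, were used only as an alternative.

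Of the clumps, 5883 were placed in a zone by 70 landmark genes, none of them a member: 3529 as crypt, 1550 as mid-villus and 804 as villus tip. UMIs were added up within each mouse and zone, which makes the mouse the replicate, and levels are given in CPM (a gene's UMIs per 1000000 UMIs of the sum). The main tests held no term for the mouse, so they did not use the pairing of zones within a mouse. Fits with the mouse as a block were run as an alternative. The sums held 79055 to 19001409 UMIs, the deepest being the crypt of mouse 4, so the limit of 50 UMIs favoured genes of the crypt. Mitochondrial UMIs took 4.70% to 21.4% of a sum, with mouse 5 at 18.6% or above in every zone and the crypt lowest in each of the 5 mice. The summed level of 23 enterocyte markers, 6 of which were landmarks, ran from 10996 to 49196 CPM in the crypt, 71888 to 121881 in the mid-villus and 72765 to 124797 at the tip. The summed level of 14 stem and dividing cell markers was 588 to 1609 CPM in the crypt and at most 238.5 in the mid-villus and 421.5 at the tip. The 10 Paneth cell markers stood at 13.7 to 14730 CPM in the crypt, so their share differed widely between mice, while 16 immune markers stood at 122 to 998 CPM there, 434 to 2853 in the mid-villus and 545 to 3848 at the tip, lowest in the crypt in every mouse but mouse 2. Goblet markers stood at 1056 to 2224 CPM in the crypt, 776 to 4264 in the mid-villus and 1025 to 7415 at the tip, where they were highest in mice 1, 3 and 4. The part of these cells and of the mitochondrial share in the levels below was not tested. In sums over clumps, fewer cells of a type and less RNA per cell cannot be told apart.

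Together the members held 141034 UMIs, 0.367% of the clump table, and 6 genes held 50.5% of these. Summed, they reached 3500 ± 1176 CPM (SD, n = 5 mice) for crypt, 8082 ± 2677 for mid-villus and 4931 ± 1367 for tip, and the mid-villus was highest in every mouse. Behind this sum the families differed. Cyp genes together went from 780 ± 312 CPM in the crypt to 3791 ± 1111 in the mid-villus and 3332 ± 1078 at the tip. Gst genes went from 1798 ± 603 to 2376 ± 1109 and then 701 ± 104 CPM, and Ugt genes from 472 ± 97.2 to 807 ± 308 and 265 ± 76.4. Sult genes went from 449 ± 239 to 1108 ± 434 and 632 ± 266 CPM. Cyp transcripts thus stayed abundant up to the tip, while Gst and Ugt transcripts were at their lowest there. By mean level 40 of the 58 members were highest in the mid-villus, 11 at the tip and 7 in the crypt, and 18 had the mid-villus highest in every mouse.

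The crypt to mid-villus step was tested with edgeR's quasi-likelihood test over 7445 genes, of which 42 were members. Of these members 28 rose at a Benjamini-Hochberg adjusted p under 0.05, 24 of them in every mouse, and only Gstm5 fell. Over all genes tested 16.6% were called higher and 23.7% lower, and the median log2 change was -0.04 against 1.53 over the members tested. Of the tested Cyp genes 19 of 22 rose (median 2.36), of Gst 5 of 14 (median 0.70), of Ugt 2 of 3 and of Sult 2 of 3. The other 16 members did not pass the filter on low counts: Cyp2b13, Cyp2c40, Cyp2c67, Cyp2e1, Cyp2j9, Cyp3a41b, Cyp3a59, Cyp4b1-ps2, Cyp4f37, Gsta3, Gstm4, Gstm7, Ugt2a1, Ugt2b35, Ugt2b36 and Ugt2b5. From mid-villus to tip the direction turned: 10 members fell, in every mouse, and only Cyp4f16 rose, where 6.33% of all genes were called lower and 6.02% higher. The median was -0.84 over the members and -0.13 over all genes. Those that fell were 5 Gst, 3 Ugt and 2 Cyp genes. With the mouse as a block, 21 members fell and 4 rose over this step, while over all 7445 genes 1081 fell and 969 rose in that fit. The 4 were Cyp4f16, Cyp3a11, Cyp3a13 and Gstm5. The count of 11 calls fell to 7 without mouse 1 (all genes 241 up and 117 down of 6413) and to 7 without mouse 3 (226 up and 156 down of 5152).

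Over the whole axis, from crypt to tip, 16 members rose (12 of them in every mouse) and 8 fell (7 in every mouse), where 22.7% of all genes were called higher and 30.4% lower. All 15 Cyp genes called, the pseudogene Cyp2d41-ps among them, were higher at the tip (median 2.45 over 22 tested) and all 7 Gst genes called were lower (median -1.17 over 14), with Sult2b1 the other gene that rose and Ugt1a10 the other that fell. When the sums were scaled by DESeq2's size factors instead, 16 rose and 10 fell, while over all genes the split moved from 1687 higher and 2267 lower to 1287 and 2734, and for mid-villus against crypt from 1237 and 1766 to 843 and 2207. Among pairs alone 11 members rose and 11 fell of 34 tested, beside 631 and 1820 of 4732 genes. Between crypt and mid-villus 14 members rose and 0 fell in pairs, beside 323 and 1200 genes.

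**Figure D1:**
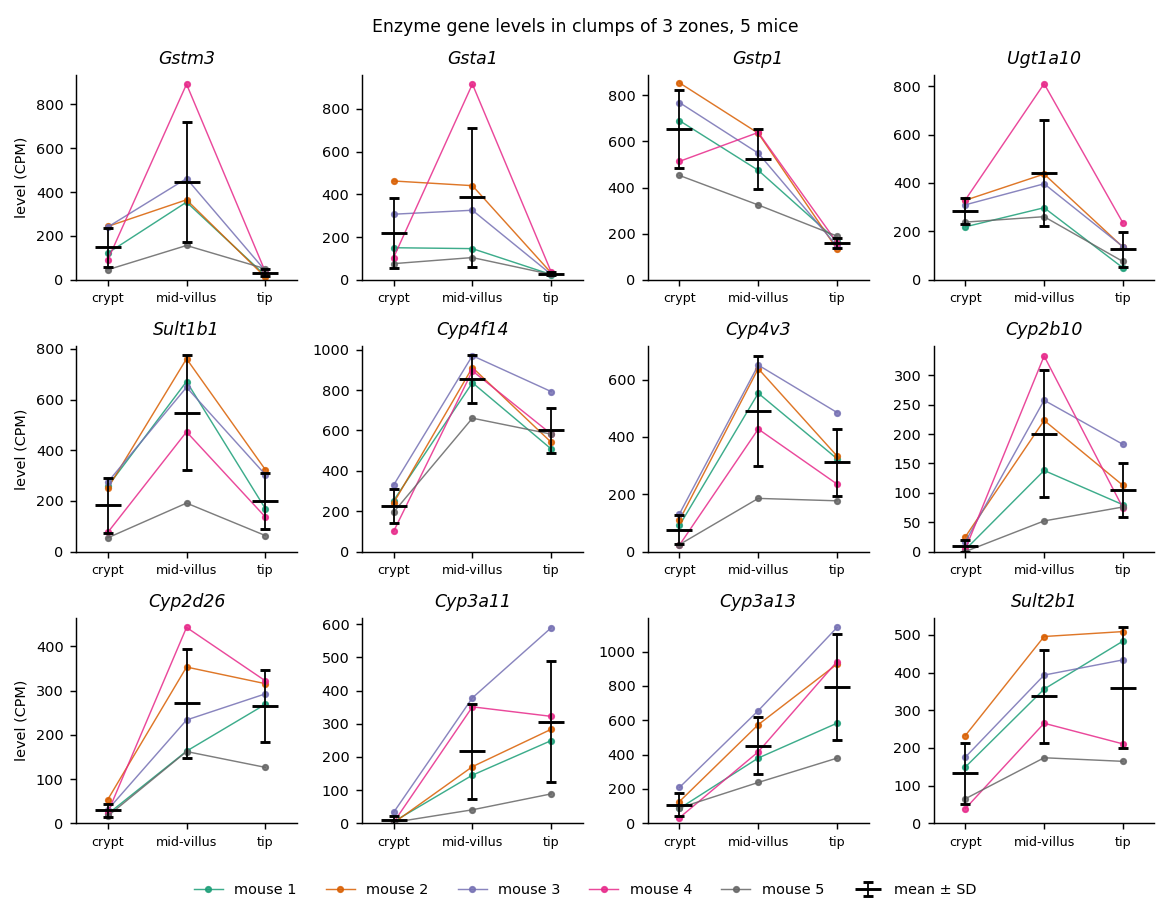
Level in CPM (vertical axis, each from 0) of 12 enzyme genes in clumps of the crypt, mid-villus and villus tip. Coloured points joined by lines are the 5 mice and black bars the mean ± SD. Gstm3, Gsta1, Gstp1 and Ugt1a10 drop to their lowest level at the tip in nearly every mouse, while Cyp2d26, Cyp3a11, Cyp3a13 and Sult2b1 stay high there.

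**Figure D2:**
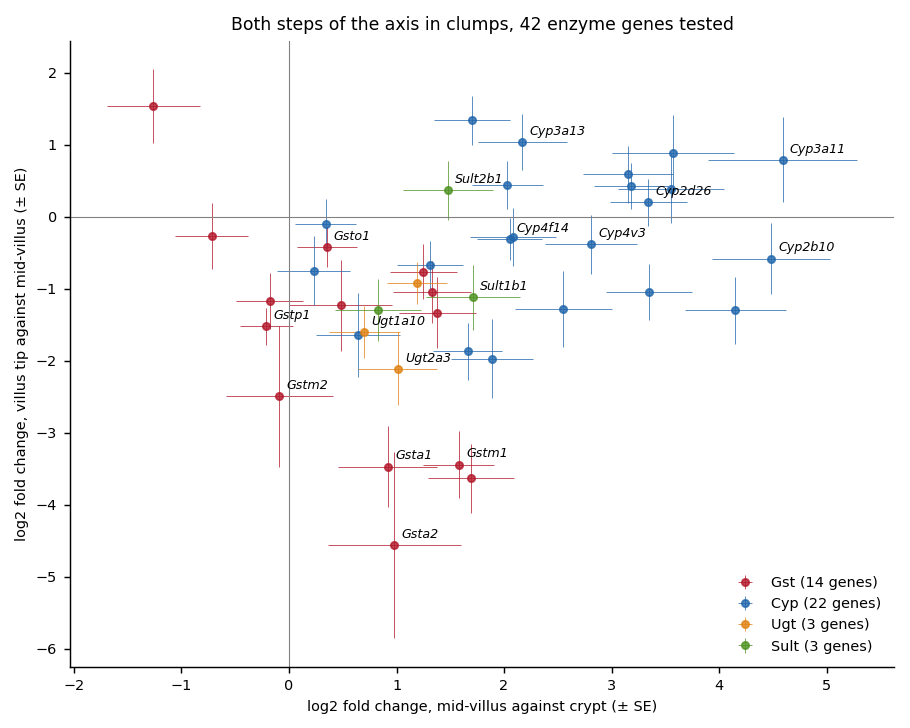
Log2 change from crypt to mid-villus (horizontal axis) against that from mid-villus to tip (vertical axis), each ± SE, for the 42 enzyme genes tested, coloured by family. Most Cyp genes lie to the right and near the horizontal zero line, and Gsta1, Gsta2, Gstm1 and Gstm3 lie far below it; both axes share the mid-villus sums, so the axes are not independent.

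Among the oxidising enzymes, Cyp3a11 (chromosome 5, 145854426 to 145879964, minus strand, GRCm38), a main drug-oxidising P450 of mouse gut and liver, was measured in mice 1 to 5 at 4.75, 1.14, 32.8, 2.58 and 2.71 CPM in the crypt, 145, 171, 378, 351 and 40.6 in the mid-villus, and 249, 283, 589, 322 and 88.5 at the tip. Every mid-villus and tip value lay above every crypt value, and the mid-villus and tip ranges overlapped. The log2 change was 4.59 ± 0.69 (SE, adjusted p = 2.43e-05) from crypt to mid-villus and 5.37 ± 0.72 (adjusted p = 3.59e-06) from crypt to tip, and 0.79 ± 0.59 from mid-villus to tip did not pass (adjusted p = 0.42), but did with the mouse as a block (0.74 ± 0.29, adjusted p = 0.0475). Cyp3a13 (chromosome 5, 137892932 to 137921619, minus strand), of the same subfamily, was at 86.3, 127, 209, 32.3 and 89.4 CPM in the crypt, 380, 574, 656, 416 and 238 in the mid-villus, and 583, 928, 1141, 942 and 380 at the tip. It was higher at each step in all 5 mice, with no overlap between crypt and mid-villus. The change was 2.17 ± 0.41 (adjusted p = 0.000216) to the mid-villus, and the further 1.04 ± 0.39 to the tip missed the threshold (adjusted p = 0.0874) and passed with the mouse as a block (1.00 ± 0.24, adjusted p = 0.00116).

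Cyp2b10 (chromosome 7, 25897620 to 25926624, plus strand), a P450 known for its induction through the receptor CAR, was at 3.29, 25.1, 16.7, 4.37 and 0 CPM in the crypt of mice 1 to 5, 138, 223, 258, 333 and 52.2 in the mid-villus, and 79.8, 113, 183, 74.4 and 75.9 at the tip. No villus value fell within the crypt range, and the 0 in mouse 5 allowed a level of up to 8.13 CPM (3 of 369045 UMIs, counting error only). The change from crypt was 4.48 ± 0.55 to the mid-villus and 3.90 ± 0.56 to the tip (adjusted p = 4.35e-06 and 7.91e-06). Cyp2d26 (chromosome 15, 82790101 to 82794294, minus strand), of the CYP2D drug-oxidising subfamily, was at 20.8, 53.7, 30.6, 24.1 and 16.3 CPM in the crypt, 163, 354, 234, 443 and 162 in the mid-villus, and 269, 316, 293, 322 and 127 at the tip. It thus formed a plateau over the villus: the change was 3.34 ± 0.36 to the mid-villus (adjusted p = 1.9e-06) and 0.20 ± 0.33 beyond it. Cyp2d40 rose from 1.91 ± 1.28 CPM in the crypt to 22.0 ± 15.7 in the mid-villus and 21.6 ± 14.4 at the tip, and the annotated pseudogene Cyp2d41-ps from 1.29 ± 1.05 to 11.4 ± 7.89 and 19.8 ± 18.6. Genes of the CYP2C, CYP2D and CYP3A clusters are close in sequence, so reads could be split between copies and the level of a single gene is uncertain.

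CYP4 enzymes are known for hydroxylating the end carbon of fatty acids and eicosanoids, and the mean crypt level of their genes ran from 0.366 CPM for Cyp4b1-ps2 to 224 for Cyp4f14. Cyp4f14 (chromosome 17, 32905070 to 32917342, minus strand), which acts on leukotriene B4, was at 253, 241, 329, 99.8 and 195 CPM in the crypt, 837, 912, 971, 895 and 661 in the mid-villus, and 508, 542, 793, 583 and 582 at the tip. Each mouse had its highest value in the mid-villus, with no overlap of crypt and villus. The change was 2.05 ± 0.30 (adjusted p = 2.08e-05), and the -0.31 ± 0.29 that followed did not pass. Cyp4v3 (chromosome 8, 45304944 to 45333216, minus strand), a fatty acid hydroxylase, was at 91.4, 110, 132, 22.7 and 24.4 CPM, then 553, 638, 651, 428 and 186, then 324, 333, 485, 236 and 177, in the order crypt, mid-villus, tip. Its mid-villus level was again the highest in every mouse (2.81 ± 0.43 from the crypt, adjusted p = 2.8e-05). Cyp4f16, named after its values were seen, was the only member called higher at the tip than in the mid-villus without the block (1.34 ± 0.34, adjusted p = 0.0143), going from 36.1 ± 10.2 CPM in the crypt to 110 ± 54.9 and 231 ± 83.9. Cyp2j6, a P450 of the arachidonic acid epoxygenase family, was at 59.3 ± 24.8, 137 ± 37.8 and 71.4 ± 36.0 CPM and rose over the first step (1.31 ± 0.31, adjusted p = 0.00187).

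The Cyp2c and Cyp3a members stood together in the genome, 7 Cyp2c genes between 39007019 and 39886799 on chromosome 19 and 4 of 5 Cyp3a genes between 145558664 and 146113287 on chromosome 5, and many of them carried the same letters before their start. Promoters (250 bases before to 50 after the start, RefSeq, GRCm38.p6) matched 52 of the 58 members and numbered 64. The HNF4 motif CAAAGTCCA, searched on both strands, was in 8 of 64 (12.5%), against 156 of 32851 promoters of all genes (0.475%). It stood in 5 of 7 Cyp2c and 2 of 5 Cyp3a members and in Sult1b1. The windows are shown because the carriers tested shared the rise from crypt to mid-villus; each gives the motif in capitals with its flanks, read 5′ to 3′ on the gene's own strand.
Cyp2c40: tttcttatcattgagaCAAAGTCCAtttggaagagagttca
Cyp2c65: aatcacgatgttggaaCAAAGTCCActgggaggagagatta
Cyp2c67: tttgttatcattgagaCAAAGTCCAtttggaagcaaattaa
Cyp2c68: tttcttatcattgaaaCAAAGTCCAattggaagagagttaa
Cyp2c69: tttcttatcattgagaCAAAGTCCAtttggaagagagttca
Cyp3a11: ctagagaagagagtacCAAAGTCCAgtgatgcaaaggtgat
Cyp3a41b: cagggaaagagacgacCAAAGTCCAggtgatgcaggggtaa

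These windows lie at chr19:39812835-39812875, chr19:39060874-39060914, chr19:39649143-39649183, chr19:39741154-39741194, chr19:39886820-39886860, chr5:145879939-145879979 and chr5:145584801-145584841 in the order listed, all on the minus strand except that of Cyp2c65, with the motif starting 45 to 125 bases before the RefSeq start. For Cyp3a11 the gene bounds given above put the start at 145879964, which lies inside its window, so the 2 annotations disagree there. The motif in Sult1b1 lay after the start. The windows of Cyp2c40, Cyp2c67, Cyp2c68 and Cyp2c69 differ at few letters outside the motif, so the carriers are related copies and not independent instances. Of the 8 carriers 5 were tested in clumps and all 5 rose from crypt to mid-villus, as did all 5 Cyp2c and all 3 Cyp3a genes tested, with or without the motif. From mid-villus to tip the carriers parted, with Cyp3a11 at 0.79 and Cyp2c68 at -1.87 on the log2 scale, and Cyp2c40, Cyp2c67 and Cyp3a41b were not tested. The transcript of Hnf4a, the factor named for this motif, was at 357 ± 91.2 CPM (crypt), 322 ± 53.0 (mid-villus) and 482 ± 75.6 (tip), and whether it has a part in these levels was not tested. The other motifs were no more frequent in member promoters than in all promoters, except the TATA box. TGACNNNGC (antioxidant response element) was in 10.9% against 12.4%, GCGTG (xenobiotic response element) in 25% against 32.4%, TTTATG (CDX factors) in 7.81% against 11.9% and TATAAA in 26.6% against 13.6%. Such a match is a description and not evidence of binding.

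Of the 5 Cyp2c genes tested, 2 were called lower at the tip. Cyp2c68 was at 27.8, 37.7, 41.6, 23.4 and 19.0 CPM in the crypt of mice 1 to 5, 66.2, 103, 93.9, 158 and 17.4 in the mid-villus, and 9.97, 20.1, 23.3, 37.2 and 12.7 at the tip, and was chosen here, like Cyp2c69, after its values were seen. It fell from mid-villus to tip in all 5 mice (-1.87 ± 0.40, adjusted p = 0.00388), as was Cyp2c69 (-1.97 ± 0.55, adjusted p = 0.0216). Cyp2c55, Cyp2c65 and Cyp2c66 did not pass, though Cyp2c55 and Cyp2c66 did with the mouse as a block (-1.46 ± 0.34 and -1.33 ± 0.42, adjusted p = 0.000892 and 0.0143).

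Glutathione S-transferases conjugate electrophiles to glutathione, and of 14 tested 7 were lower at the tip than in crypt clumps and 0 higher. Gstm3 (chromosome 3, 107963696 to 107969283, minus strand), of the mu class, was at 122, 243, 241, 90.6 and 46.1 CPM in the crypt of mice 1 to 5, 354, 365, 461, 891 and 157 in the mid-villus, and 19.9, 12.5, 41.7, 37.2 and 50.6 at the tip. The mid-villus was highest in every mouse and did not overlap the tip, while mouse 5 had a slightly higher level at the tip than in its crypt. The change was 1.69 ± 0.40 up (adjusted p = 0.00168) and then -3.63 ± 0.48 (adjusted p = 4.9e-05). Gstm1, also on chromosome 3, went from 53.2 ± 25.4 to 149 ± 83.4 and then to 11.4 ± 9.18 CPM (-3.44 ± 0.46 over the second step, adjusted p = 5.05e-05).

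Gsta1 (chromosome 9, 78230656 to 78242684, plus strand), of the alpha class, was at 150, 462, 307, 104 and 75.9 CPM in the crypt, 146, 441, 326, 916 and 104 in the mid-villus, and 24.9, 32.6, 25.7, 37.2 and 25.3 at the tip. Crypt and mid-villus overlapped (0.92 ± 0.46, adjusted p = 0.116, or 0.79 ± 0.27 and 0.0117 with the mouse as a block), and the 5 tip values lay below all others (-3.47 ± 0.56 from the mid-villus, adjusted p = 0.000369). Gsta2, nearly identical in sequence to Gsta1, had 1, 0, 1, 0 and 0 UMIs at the tip of mice 1 to 5 against 7, 54, 58, 33 and 2 in the mid-villus, and was called lower at the tip (adjusted p = 0.0228). Gstm2 had 0, 2, 1, 0 and 0 UMIs at the tip and 24, 15, 38, 467 and 3 in the crypt (adjusted p = 0.0238 against the crypt). For these scarce transcripts no fold change is given, because it would rest on 2 and 3 UMIs.

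Gstp1 (chromosome 19, 4035407 to 4037985, minus strand), the pi class enzyme and the member with most UMIs, did not share the rise. It was at 690, 854, 768, 514 and 453 CPM in the crypt, 475, 636, 549, 639 and 325 in the mid-villus, and 169, 133, 146, 161 and 190 at the tip. Crypt and mid-villus overlapped (-0.21 ± 0.25, adjusted p = 0.53), and every tip value was below every other value (-1.52 ± 0.26 from the mid-villus, adjusted p = 0.000729). Its near copy Gstp2, from which its reads are not fully separable, was at 101 ± 50.7, 81.2 ± 23.1 and 34.2 ± 10.9 CPM and fell between crypt and tip (-1.35 ± 0.38, adjusted p = 0.00501). Gsto1, the omega class enzyme, which also reduces dehydroascorbate, was at 418 ± 113, 500 ± 189 and 316 ± 78.8 CPM, with no step past the threshold. Gstm5, of the mu class like the called Gstm1, Gstm3 and Gstm6, which rose over the first step, was at 25.9 ± 6.63 CPM (crypt), 9.96 ± 8.78 (mid-villus) and 26.5 ± 18.6 (tip) (-1.26 ± 0.43 over the first step, adjusted p = 0.0249), and was named after its values were seen.

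Glucuronosyltransferases attach glucuronic acid to drugs, bilirubin, steroids and bile acids. Ugt1a10 (chromosome 1, 88055388 to 88219004, plus strand) is the single row for the Ugt1a locus, whose genes share their last exons, so at the 3′ end it stands for the locus. It was at 219, 329, 310, 330 and 239 CPM in the crypt of mice 1 to 5, 298, 437, 397, 810 and 261 in the mid-villus, and 49.8, 135, 137, 235 and 75.9 at the tip. No tip value reached the mid-villus range, while the tip of mouse 4 lay within the crypt range (-1.60 ± 0.36 from mid-villus to tip, adjusted p = 0.00561, after 0.70 ± 0.33, adjusted p = 0.0982, or 0.64 ± 0.20 and 0.00627 with the mouse as a block). Ugt2a3 was at 33.0 ± 20.5, 61.7 ± 32.3 and 7.93 ± 7.68 CPM, with 0 UMIs at the tip of mice 4 and 5, where a count of 0 allowed up to 37.2 and 37.9 CPM. Ugt2b34 rose (1.19 ± 0.28, adjusted p = 0.00166) and fell again (-0.92 ± 0.29, adjusted p = 0.0419), at 135 ± 41.7, 285 ± 98.4 and 126 ± 20.4 CPM. Ugt2b35, Ugt2b5 and Ugt2b36 were scarce and not tested, with crypt means of 8.26, 4.62 and 3.93 CPM. Ugt2b5 and Ugt2b36 had no UMI among 1575447 at the tip, which allowed 1.90 CPM over the group.

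Of the sulfotransferases, Sult1b1 (chromosome 5, 87513339 to 87538195, minus strand), which sulfonates phenols and thyroid hormones, was at 257, 250, 274, 75.5 and 54.2 CPM in the crypt, 671, 761, 648, 473 and 191 in the mid-villus, and 169, 323, 304, 136 and 63.2 at the tip. Each mouse peaked in the mid-villus, but the ranges of the 3 zones overlapped, with mice 4 and 5 low throughout (1.71 ± 0.44 up, adjusted p = 0.00387, then -1.12 ± 0.45, adjusted p = 0.104). With the mouse as a block the second step passed (-1.25 ± 0.24, adjusted p = 6.55e-05). Sult2b1 (chromosome 7, 45729983 to 45784669, minus strand), which sulfonates cholesterol, was at 132 ± 79.9 CPM, then 337 ± 123, then 360 ± 161, in the order crypt, mid-villus, tip. Every mouse was higher in the mid-villus than in the crypt. The second step did not pass (1.48 ± 0.42 over the first step, adjusted p = 0.0068, then 0.37 ± 0.41, adjusted p = 0.621). Sult1d1, which sulfonates catecholamines, was at 135 ± 60.9, 223 ± 92.0 and 72.6 ± 39.98 CPM, and no step passed without the block. With it the rise (0.96 ± 0.23, adjusted p = 0.00032) and the fall (-1.48 ± 0.28, adjusted p = 5.93e-05) both did.

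Across the 15 sums of mouse and zone, log2 levels of Cyp genes correlated with one another (median r = 0.62 over 231 gene pairs) and those of Gst genes likewise (0.56 over 91), while the median between a Cyp and a Gst gene was 0.18 over 308. Gst and Ugt genes had a median of 0.68 over 42. These are descriptions over 15 sums that share mice and zones. The gene most like Gstp1 was Traf5 (r = 0.99), most like Gstm3 the electron donor Cyb5a (0.97), most like Cyp4v3 Guca2b (0.99), most like Cyp2d26 the epoxide hydrolase Ephx2 (0.98) and most like Cyp3a11 the class I antigen genes H2-K1 and B2m and the sterol transporter Npc1l1 (0.96 each).

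Other detoxification genes were read from a list of 76 that holds no member, 54 of which were tested. From crypt to mid-villus 20 rose and 6 fell (16.6% and 23.7% of all genes), and from there to the tip 1 rose and 12 fell (6.02% and 6.33%). Of 4 electron donors tested 3 rose over the first step. Cyb5a, the microsomal cytochrome b5, was at 326 ± 106, 574 ± 223 and 146 ± 44.0 CPM, and fell at the tip (-1.72 ± 0.30, adjusted p = 0.000834). Of 4 efflux pump genes tested 3 rose and 0 fell later: Abcc2 went from 36.6 ± 14.3 to 151 ± 45.4 and 134 ± 79.8 CPM, and Abcg2 from 57.5 ± 23.3 to 123 ± 61.7 and 153 ± 53.7. Gclm, a subunit of the enzyme that starts glutathione synthesis, went from 859 ± 228 CPM in crypt clumps to 242 ± 73.6 in mid-villus and 167 ± 89.5 in tip clumps (-1.75 ± 0.30 over the first step, adjusted p = 7.95e-05). Mgst1, a membrane-bound glutathione transferase, was also highest in the crypt (304 ± 76.9, 164 ± 39.7 and 62.5 ± 54.8 CPM). Nfe2l2, which encodes a regulator of antioxidant genes, passed in no step.

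Whether these differences were also found without neighbouring cells was read from single cells. The enterocyte-like cluster held 2454 cells (leading genes Apoa4, Apoa1, Apob and Clca4a), of which 2398 were placed on the same axis. The crypt-ward sum of mouse 1 held only 5 cells and 12651 UMIs, with enteroendocrine markers at 3636 CPM against 22.6 to 102 in the other crypt-ward sums. Summed enterocyte markers were at 12442 to 27192 CPM crypt-ward, 32209 to 44554 in the mid-villus and 25871 to 41858 tip-ward, so marker levels still moved with zone within the cluster. Mitochondrial UMIs rose with zone in each of the 4 mice, from 21.6% to 29.5% crypt-ward to 31.5% to 33.4% tip-ward, and their part in the changes was not tested. Of 33 members tested among 3846 genes, 13 rose and 0 fell from crypt to mid-villus (14.6% and 17.1% of all genes; median 1.07 against 0.15), and 0 rose and 18 fell from mid-villus to tip (15.2% and 15.0%; median -1.17 against -0.02). By family the second step took 8 of 10 Gst, 3 of 3 Ugt, 2 of 3 Sult and 5 of 17 Cyp genes down. From crypt to tip 8 rose and 11 fell (32.1% and 28.3% of all genes). Calls that held in every mouse were 8 of 13 over the first step, 17 of 18 over the second, and 3 of 8 higher and 6 of 11 lower from crypt to tip. Without mouse 1, 15 rose and 0 fell over the first step, 1 rose and 19 fell over the second, and 10 rose and 10 fell from crypt to tip, of 35 members tested. With DESeq2's size factors the last 2 splits were 2 up and 17 down, and 12 up and 9 down, while over all genes the step from mid-villus to tip went from 583 up and 576 down to 762 and 506. The count of 13 became 20 up and 1 down with the mouse as a block (787 and 804 of all genes) and 8 without mouse 3 (314 and 533 of all 4050 genes). The count of 18 became 7 without mouse 2 (247 and 195 of 3799) and 10 without mouse 3 (298 and 259 of 4050).

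Gstp1 was at 158, 287, 382 and 485 CPM in the crypt-ward single enterocytes of mice 1 to 4, 97.3, 181, 278 and 208 in the mid-villus, and 19.8, 36.5, 62.4 and 39.2 at the tip. Its tip values lay below all others, as in clumps (-1.74 ± 0.40 from the mid-villus, adjusted p = 0.00362). Cyp3a11 was at 0, 17.6, 7.72 and 22.5 CPM, then 129, 226, 221 and 237, then 112, 252, 166 and 184. Crypt and villus did not overlap in mice 2 to 4, while the 0 of mouse 1 allowed up to 237 CPM and so did not set its crypt apart (4.16 ± 0.43, adjusted p = 9.46e-07). Gstm3 did not pass over the first step (0.28 ± 0.54, adjusted p = 0.736). It was at 711, 193, 272 and 120 CPM crypt-ward, 69.1, 271, 377 and 101 in the mid-villus and 6.26, 43.9, 36.6 and 3.68 at the tip. The crypt-ward value of mouse 1 rested on 9 UMIs, and the fall at the tip was -2.80 ± 0.60 (adjusted p = 0.00199). By mean level 13 of 17 Gst genes were highest crypt-ward in single enterocytes, but 10 without mouse 1, and 4 were highest there in at least 3 of the 4 mice.

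For the 32 members tested in both kinds of sample, the changes had the same sign for 27 over the first step and 29 over the second. Calls in both numbered 12 and 9, all of the same sign. Across these genes r was 0.938 and 0.916, as a description, against 0.922 and 0.885 over 3834 genes. Over the first step 12 of the genes called in both were Cyp or Sult genes and none was a Gst or Ugt gene. With the mouse as a block, Gstm1 and Gstm6, called higher in clumps, also passed this step in single enterocytes. Their changes there were 0.88 ± 0.29 and 1.29 ± 0.48 (edgeR, adjusted p = 0.00818 and 0.0183). Over the second step the genes called in both were Gstp1, Ugt1a10, Gsta1, Gstm3, Ugt2b34, Gstm1, Cyp2c68, Ugt2a3 and Gsta2.

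**Figure D3:**
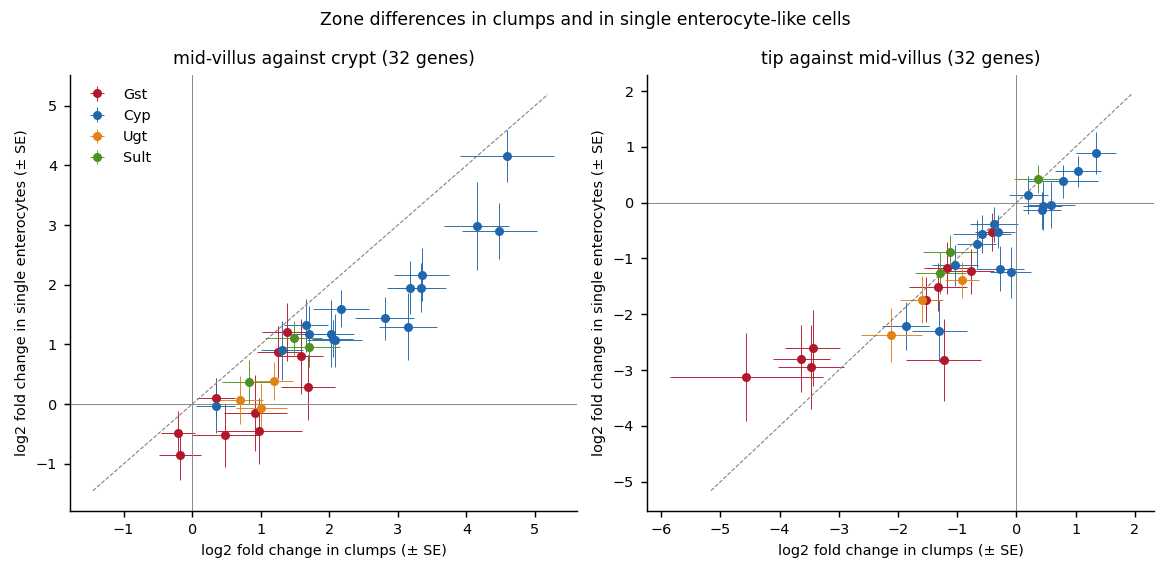
Log2 change ± SE in clumps (horizontal axis) and in single enterocyte-like cells (vertical axis) for the 32 enzyme genes tested in both, for mid-villus against crypt (left) and tip against mid-villus (right), coloured by family, with the line of equal change dashed. On the left all 32 genes lie below the line, and on the right Gst and Ugt genes are low on both axes.

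Pairs and larger clumps were compared within each zone, which asks whether enzyme levels depend on how many cells stayed attached. Larger clumps held a median of 5424 UMIs and pairs 1687. No member passed in the crypt (34 tested), mid-villus (36) or tip (11), and the share called over all genes was 0%, 0% and 0% of 7386, 4398 and 851. The tip pairs of mice 4 and 5 were only 6 and 12 clumps, of 5016 and 10888 UMIs. The mid-villus pairs of mouse 5 were 13 clumps of 13564 UMIs. This limited what could be called in these zones. DESeq2 also called 0 genes in each zone. At an unadjusted p under 0.05, edgeR gave 227 genes for the crypt (3.07%), 116 for the mid-villus and 33 for the tip, and DESeq2 103, 23 and 16. The members among edgeR's were Cyp2d26, Cyp3a25, Gsta2, Gsta4, Gstm3 and Gstm6 in the crypt, Gstt1 in the mid-villus and none at the tip. Over the 3 mice with both sizes, with the mouse as a block, 7 genes were higher and 22 lower in larger crypt clumps, with 0 of 26 members among them.

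In the crypt 29 of 34 members had a negative estimate (median -0.47 against 0.04 over all genes), with mice 2 and 3 giving pairs only. With the mouse as a block, over the 3 mice with both sizes, the median was -0.21 over 26 members against 0.10 over all genes. In the mid-villus the members' median without the block was -0.01, and 17, 2 and 13 of 36 members were lower in larger clumps in mice 1, 4 and 5. The mid-villus pairs of mice 4 and 5 were only 67 and 13 clumps, of 70199 and 13564 UMIs. The count of mouse 5 there gives no direction, and that of mouse 4 is uncertain. Within mice the level was lower in larger crypt clumps for 30 of 34 members in mouse 1 and 16 in mouse 4. In mouse 5 the count was 7, which gives no direction. Its crypt pairs were 17 clumps of 38199 UMIs in which 21 of the 34 members had 0 UMIs, each allowing up to 78.5 CPM. Gstm3 was at 186, 243, 241, 128 and 52.4 CPM in the crypt pairs of mice 1 to 5 and at 99.1, 89.8 and 45.3 in the larger clumps of mice 1, 4 and 5. It was lower in the larger clumps of all 3 mice, though the value for the pairs of mouse 5 rested on 2 UMIs and the estimate did not pass (-1.16 ± 0.37, adjusted p = 1.0). Cyp2d26 was at 41.8, 53.7, 30.6, 25.02 and 26.2 CPM in pairs and at 13.4, 24.0 and 15.1 in larger clumps, lower in each of the 3 mice, and the value for the pairs of mouse 5 was 1 UMI (adjusted p = 1.0). Summed enterocyte markers moved the same way, from 38344 CPM in pairs to 22013 in larger crypt clumps of mouse 1, from 12978 to 10954 in mouse 4 and from 60839 to 46656 in mouse 5, while stem and dividing cell markers moved the other way, from 453 to 774, from 786 to 1627 and from 445 to 605 CPM. Paneth markers went from 1353 to 19483, from 388 to 4962 and from 22959 to 163 CPM in the same mice. Mitochondrial UMIs took 19.4% in the pairs of mouse 4 against 6.34% in its larger clumps, and the part of these differences in the estimates was not tested. The median SE over the 34 members tested in the crypt was 0.42 on the log2 scale. Without a filter on low counts 1 member passed, Gsta2, lower in larger crypt clumps (-2.36, adjusted p = 0.0235), beside 9 genes higher and 20 lower of 23577.

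**Figure D4:**
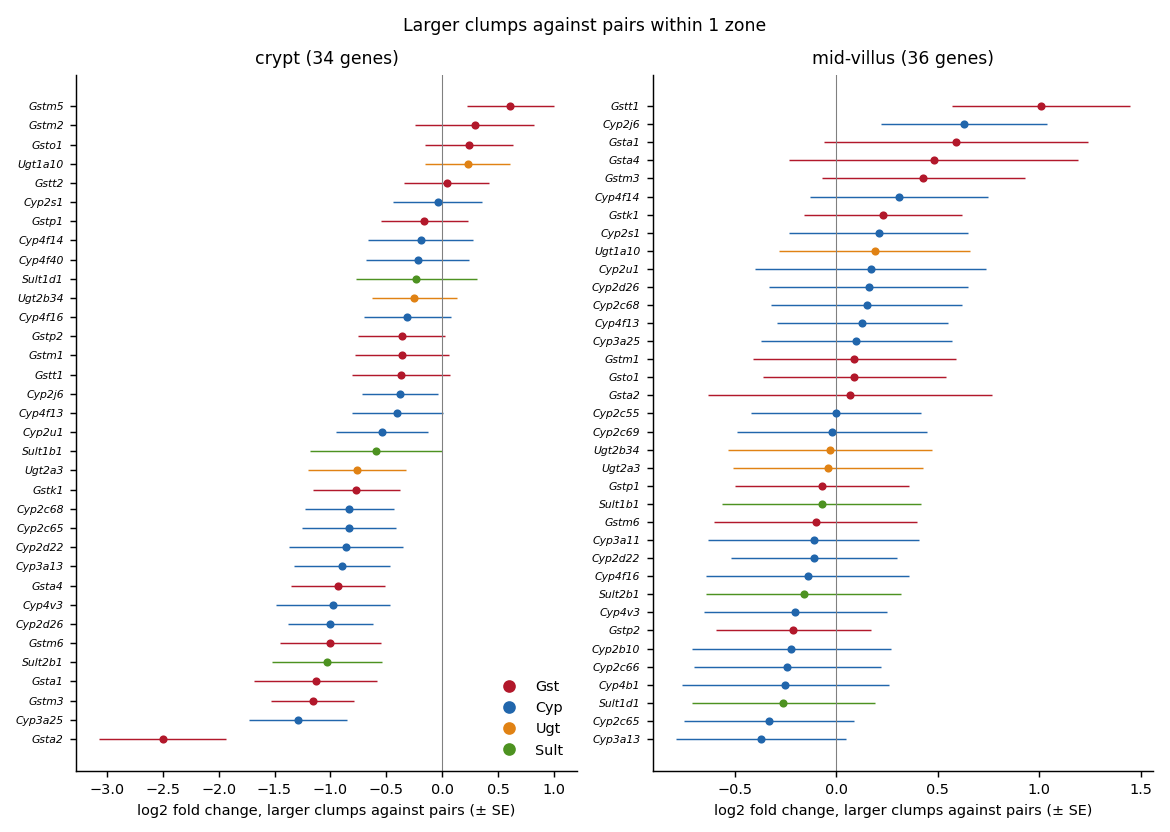
Log2 difference, larger clumps against pairs (horizontal axis, ± SE), of the enzyme genes tested in the crypt (34, left) and in the mid-villus (36, right), sorted by value and coloured by family. Most crypt estimates lie left of zero and those of the mid-villus on both sides; none passed the adjusted threshold.

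Levels in single cell types are given as a description over clusters made without the members. Besides enterocyte-like cells there were 1711 immune-like cells, 248 enteroendocrine-like, 211 goblet-like and 186 tuft-like cells, and 389 in a cluster led by haemoglobin and immunoglobulin genes that was left unnamed. Some plates were gated on surface proteins, so cluster sizes are not tissue shares. Summed over members, enterocyte-like cells stood at 3020 ± 1205 CPM (SD, n = 4 mice), enteroendocrine-like at 1759 ± 377, goblet-like at 1224 ± 388, immune-like at 858 ± 389 and tuft-like at 599 ± 33.9 (n = 3). The enteroendocrine-like sums of mice 1, 3 and 4 held only 10, 11 and 8 cells. By mean level 32 members were highest in enterocyte-like cells, 17 in enteroendocrine-like, 3 in goblet-like (Gsta1, Gsta4 and Ugt2a1), 3 in immune-like, 2 in tuft-like and 1 in the unnamed cells. The enterocyte-like cluster mixes zones, with 563 tip-ward and 5 crypt-ward cells in mouse 1. Within it summed Gst genes stood at 1419 ± 228.5 CPM crypt-ward and 243.6 ± 89.15 tip-ward, against 760.7 ± 296.1 in goblet-like cells. The part of this zone mix in the ranking was not tested.

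Cyp3a11 was at 114, 210, 153 and 181 CPM in enterocyte-like cells of mice 1 to 4 and at 9.76, 18.3, 9.98 and 84.9 in goblet-like cells. Immune-like cells, a type not known for this enzyme, held 195, 7.25, 10.6 and 33.0 CPM of it, the first from a sum of 21 cells. Levels near these in other types therefore cannot be told apart from free RNA. Some members were higher in other types, and the next were named after their values were seen. Gsta4, the alpha class enzyme that clears the lipid peroxidation product 4-hydroxynonenal, was at 264, 268, 354 and 382 CPM in goblet-like cells against 1.77, 15.4, 23.7 and 6.98 in enterocyte-like cells, with no overlap, and had 0 UMIs in enteroendocrine-like and tuft-like cells, which allowed up to 5.92 and 7.30 CPM over the mice. Gsto1 was at 194, 326, 274 and 1062 CPM in enteroendocrine-like cells and at 76.3, 147, 194 and 242 in enterocyte-like cells, with overlapping ranges, and outside mouse 2 (146 UMIs) the former rested on 5, 6 and 12 UMIs. Sult1d1 was at 117, 190, 183 and 177 CPM against 24.4, 130, 106 and 123, from 85 UMIs in mouse 2 and 3, 4 and 2 in mice 1, 3 and 4. Gstp1, at 168, 161 and 247 CPM in tuft-like cells of mice 1 to 3, was within the enterocyte-like range of 31.5 to 253.

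**Figure D5:**
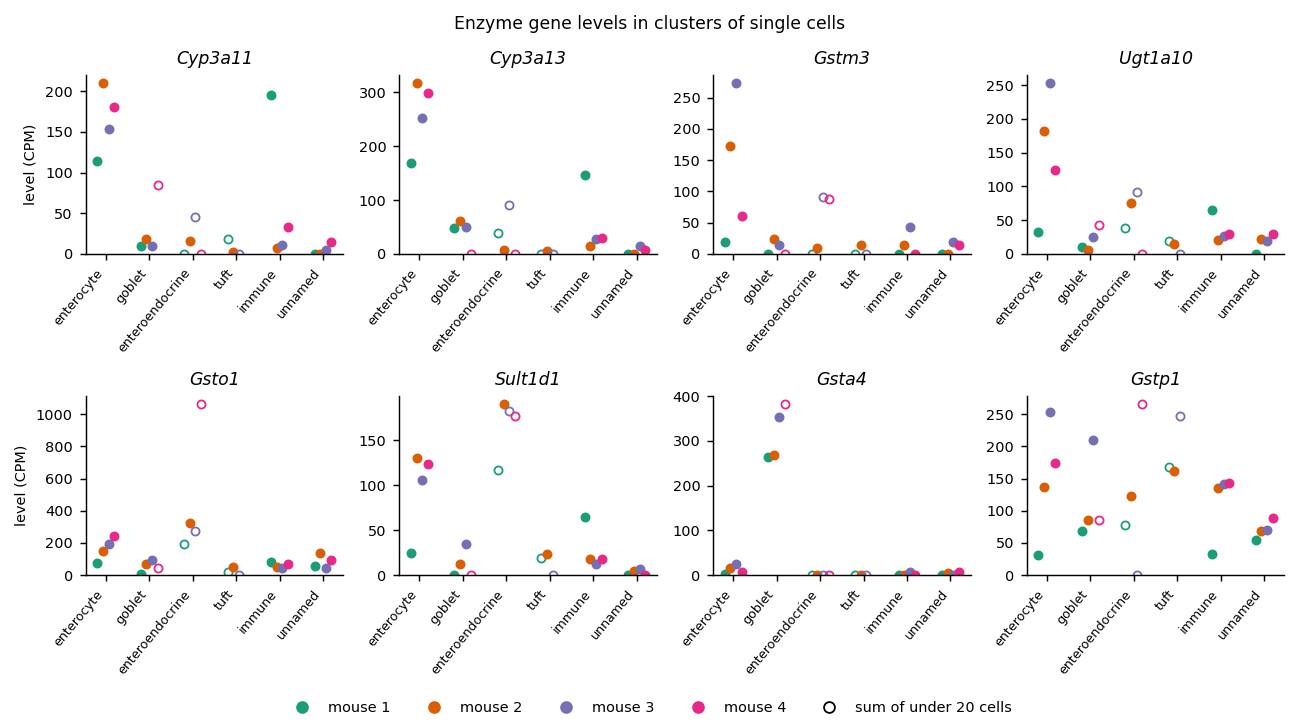
Level in CPM (vertical axis, each from 0) of 8 enzyme genes in the 6 clusters of single cells; each point is a mouse and open points are sums of under 20 cells. Gsta4 is high in goblet-like cells alone, Gsto1 and Sult1d1 are highest in enteroendocrine-like cells, and Cyp3a11 and Cyp3a13 are highest in enterocyte-like cells apart from the immune-like cells of mouse 1.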

How the data were processed

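Per the labels and the study's methods, jejunal clumps and single cells were sequenced with MARS-seq 2.0 (3′ ends), and the authors deposited UMI counts per gene and well (build GRCm38, base calls with bcl2fastq 2.15.0.4); no normalization precedes these counts. Clumps with at least 200 genes, over 500 UMIs and no more than 30% mitochondrial UMIs were retained, then placed by correlation with the study's 70 landmark genes. Single cells (200 to 7000 UMIs, 150 to 1500 genes, at most 40% mitochondrial) were clustered with scanpy 1.11.5 without the members; no doublet caller was run. Well barcodes are plate positions that all plates share. Counts were summed per mouse and group (at least 5 units) and tested with edgeR 4.0.16 (TMM, quasi-likelihood, Benjamini-Hochberg over all genes tested), with DESeq2 1.42.0 as an alternative. The fits were tested first on data simulated with the same spread for every gene and no mouse effect. For tip against crypt clumps, larger crypt clumps against pairs, and tip-ward against crypt-ward single enterocytes, 17%, 22% and 18% of 2-fold changes were recovered. Of 4-fold changes 91%, 85% and 71% were, and 3.57%, 6.14% and 7.29% of calls were false. Small changes could thus be missed. Sums with the same number in a table come from the same mouse, and their deviations correlated (clumps r 0.19 to 0.59 over 15 pairs of sums, single cells 0.03 to 0.40 over 12).

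Named were the 6 members of each family with most UMIs, the 4 largest called changes in each direction from crypt to tip, members called by clump size and those nearest the limit, and, of other detoxification genes, up to 2 per role with most UMIs. Other genes given with values were chosen after their values were seen. Members and lists were chosen with earlier results of these data known. Intervals and limits from counts cover counting error only. Single-cell mice were numbered separately from clump mice.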

Additional observations from a re-analysis of the deposited data

Results flagged for a closer look

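In 164 groups of 4 or 5 mice, 17 held a mouse that stood apart from the rest (Dixon's criterion, which chance meets in about 1 of 20 groups). By mouse number, 6 of these values were from mouse 1, 2 from mouse 2, 4 from mouse 3, 3 from mouse 4 and 2 from mouse 5. Numbers 1 to 4 each pool a clump mouse and a single-cell mouse, which were numbered separately, so their tallies are not those of a single animal. In clumps, mouse 5 was low for Gsto1 in the crypt (222 CPM, others 416 to 487) and for Cyp2d26 at the tip (127, others 269 to 322). Mouse 3 was high for Cyp4f14 at the tip (793, others 508 to 583), for Cyp3a11 in the crypt (32.8, others 1.14 to 4.75) and for Cyp3a41b in the crypt (1.57, others 0).

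The remaining values in clumps were of scarce transcripts. Ugt2b5 stood at 29.2 CPM in the mid-villus of mouse 4 (others up to 4.96) and Ugt2b36 at 5.71 in that of mouse 1 (others up to 1.24). At the tip, Gsta2 stood at 4.98 CPM in mouse 1 and Gstm2 at 5.01 in mouse 2, each with others up to 1.23.

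In single enterocytes, mouse 1 was high in its crypt-ward sum of 5 cells for Cyp3a13 (395 CPM, others 102 to 128) and Cyp2b10 (316, others 11.7 to 26.3). It was low for Cyp3a11 in the mid-villus (129, others 221 to 237) and for Gstp2 at the tip (2.61, others 12.3 to 12.9). Ugt2b36 stood at 7.16 CPM in the mid-villus of mouse 2 (others up to 0.941) and Ugt2b5 at 4.30 at the tip of mouse 3 (others 0). Crypt-ward, mouse 4 alone held Cyp4b1-ps2 (7.52 CPM) and Cyp3a41b (3.76).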

How the results depend on the processing

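Of 114 called changes of members over the comparisons tested, none turned its sign in 1442 values under the alternatives. The 24 calls from crypt to tip became 15 with every clump thinned to 500 UMIs (23 members tested; all genes 715 higher and 695 lower of 2263). The 29 calls from crypt to mid-villus became 14 among pairs alone (all genes 323 and 1200 of 4732) and 18 after thinning (554 and 560 of 2263). The 11 calls from mid-villus to tip became 21 with DESeq2 (all genes 539 higher and 653 lower of 7445), 25 with the mouse as a replicate block (969 and 1081), 6 after thinning (143 and 85 of 2263) and 20 with the sixth mouse added (552 and 810 of 6022). Without a filter on low counts, 1 member (Gsta2) passed between larger clumps and pairs in the crypt instead of 0. In single enterocytes the 13 calls from crypt to mid-villus became 24 without a filter (901 and 1018 of 17220) and 21 with the mouse as a block, which changed no further count of member calls by over 1.5 times. Leaving out each mouse in turn gave 20 to 26 calls from crypt to tip, 24 to 30 from crypt to mid-villus and 7 to 14 from mid-villus to tip in clumps, 15 to 20, 8 to 15 and 7 to 20 in single enterocytes, and 0 for each clump size comparison. For the named genes, 863 values of called changes kept their call under an alternative and 64 lost it; the cause was not tested. DESeq2's size factors moved the median of all genes from -0.15 to -0.46 for tip against crypt and from -0.04 to -0.30 for mid-villus against crypt, so changes are read relative to it. The number of members highest in enterocyte-like cells, 32, was 30 with cells named by their highest marker sum, 32 to 37 with each mouse left out in turn, and 33 when sums of under 20 cells were left out, an alternative chosen after seeing the data. Tip sums of mice 4 and 5 hold 80671 and 79055 UMIs, which limits scarce members there.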
